A study of Mus musculus with 12 samples.

Results

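A set of 10 genes that mark fibroblasts of the heart, as residents of healthy muscle or as activated cells of the injured ventricle, was followed through a mouse experiment on myocardial infarction (MI). Their symbols were chosen by name and matched to Ensembl gene identifiers, giving 10 of the 57054 gene rows. Of these, 6 are known best from resting fibroblasts (Pdgfra, Tcf21, Gsn, Dpep1, Dpt and Pi16), 2 are found in both states (Cd248 and Ddr2) and 2 are known from activated cells (Meox1 and Cilp). All 10 passed the filter on low counts in each of the 3 comparisons.

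The tissue was heart muscle of wild-type mice. A group of 3 sham vehicle mice carries the names sham and vehicle in different label fields. A group of 3 MI mice had the left coronary artery ligated, and 4 NECA-treated MI mice received NECA, 5′-(N-ethylcarboxamido)adenosine, a stable agonist of adenosine receptors, delivered locally into the infarct. The labels give no age, sex, dose or time after surgery, no region of the ventricle, and for the MI mice neither vehicle nor delivery, so NECA and its delivery cannot be told apart here. RNA was read from the 3′ ends of transcripts in bulk tissue, so more fibroblasts and more RNA per fibroblast cannot be told apart in any of the values below.

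As background, resident fibroblasts of the heart arise largely from the epicardium, depend on the transcription factor TCF21 in development, and carry the receptor PDGFRA, which binds platelet-derived growth factors. They keep the collagen network between muscle cells. After an infarct they divide, lose part of the resting programme and turn on matrix and contractile genes, among them periostin and smooth muscle actin, and later settle in the scar in a state marked by cartilage-type matrix proteins such as CILP.

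The mouse was the replicate. MI mice 2 and 3 each had a 1st library of 30.8 and 27.1 M counts (M stands for 1e6) and a 2nd of ordinary depth, within the 0.96 to 1.33 M of the other 10 libraries. The main values sum both libraries of a mouse, and values that use only their 2nd libraries are said to be at ordinary depth. The labels tell these libraries apart only as 1st and 2nd, and do not say whether both came from the same RNA. The defining heart muscle markers were high throughout. Myh6, the main myosin heavy chain of adult mouse heart, lay between 15500 and 29340 CPM (counts per 1e6 counts of a library). The 5 skeletal muscle markers summed to 294 CPM in NECA-treated mouse 4 and to 47.0 and 45.3 CPM in the libraries of MI mouse 2. In the other mice they summed to at most 4.07 CPM. Sham vehicle mouse 3 carried tissue that the other sham vehicle mice lacked. Its 4 atrial muscle markers summed to 3298 CPM, against 0 and 1.503 CPM in the other sham vehicle mice, its 6 fat cell markers to 773 CPM, against 0 and 2.26 CPM, and its 7 epicardial markers to 398 CPM, against 14.6 and 30.8 CPM. It also had the highest value of the sham vehicle mice for all 10 fibroblast genes, which 36.7% of the 9688 genes tested showed. Fat cell markers also reached 221 CPM in MI mouse 1 and 270 CPM in NECA-treated mouse 2. The part of the extra tissue in these fibroblast values was not tested.

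Promoter sequence was available for 8 of the 10 genes, as windows from 250 bases before to 50 after the start of RefSeq transcripts on build GRCm38.p6. Of the 10 windows of these genes, 3 belong to Gsn. They are shown because TCF21 is itself a member and belongs to the helix-loop-helix factors, which bind E-boxes. The E-box CAGCTG, which reads the same on both strands, occurred in 6 of the 10 windows and 5 of the 8 genes, and in 16.3% of all 32851 windows. The homeodomain core TAATTA, also the same on both strands and of the kind bound by factors such as MEOX1, occurred in 0 of the 10 windows and in 5.29% of all windows. Each stretch runs 5′ to 3′ on the gene's strand, with the E-box in capitals.
Dpt, first match: agcagagtggagCAGCTGcctctggtccct
Dpt, second match: acatgtcagcggCAGCTGtataaagtcagc
Gsn, first window: tctacatcctccCAGCTGcgctcctcccca
Gsn, second window: ggccagaggactCAGCTGtacaacccacca
Dpep1: ggagacgaggaaCAGCTGacatgtgtgata
Cilp: gggctgagccacCAGCTGtgctatataaga
Pi16: agcacagcgctgCAGCTGcttctggaattg
These lie, on the plus strand, at chr1:164796451-164796480 and chr1:164796657-164796686 for Dpt, at chr2:35256294-35256323 and chr2:35266516-35266545 for Gsn, at chr8:123186243-123186272 for Dpep1, at chr9:65265129-65265158 for Cilp and at chr17:29318893-29318922 for Pi16. The E-box of Cilp starts 39 bases before the transcript start, and that of Pi16 lies 23 bases after it. A match describes the letters of a window and says nothing of binding.

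Among the resting markers, Pdgfra (ENSMUSG00000029231), the growth factor receptor that identifies the cell type, had 31.7, 22.6 and 54.2 CPM in sham vehicle mice 1, 2 and 3. MI mouse 1 had 40.0 CPM, the 1st and 2nd libraries of MI mouse 2 had 31.2 and 22.6 CPM, and those of MI mouse 3 had 68.2 and 62.5 CPM. The NECA-treated mice had 40.6, 47.2, 33.4 and 28.3 CPM. The 3 groups overlapped, and the highest mouse was MI mouse 3. After scaling, the means were 37.2 ± 13.1 CPM in sham vehicle, 44.4 ± 12.5 CPM in MI and 37.4 ± 7.08 CPM in NECA-treated MI mice (SD, n = 3, 3 and 4).

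Tcf21 (ENSMUSG00000045680), the transcription factor of fibroblast progenitors, was the least counted of the resting markers, with 4 to 16 counts in the libraries of ordinary depth. It had 3.43, 6.77 and 8.65 CPM in the sham vehicle mice and 9.77 CPM in MI mouse 1. MI mouse 2 had 6.96 and 9.26 CPM in its 1st and 2nd libraries and MI mouse 3 had 18.7 and 16.7 CPM. NECA-treated mice 1 to 4 had 4.77, 7.32, 7.70 and 5.65 CPM. On the scaled values all 4 NECA-treated mice lay below all 3 MI mice, by a narrow gap of 7.80 CPM for the highest NECA-treated mouse against 7.84 CPM for the lowest MI mouse. The NECA-treated and sham vehicle mice overlapped.

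Gsn (ENSMUSG00000026879), gelsolin, which cuts and caps actin filaments, was the most abundant member per transcript length, with a log2(TPM + 1) of 8.13 to 9.45 over the 12 libraries. Dpt followed with a median of 5.83 and Cilp had the lowest median, 1.97, on that scale, which the authors computed by length although 3′ reads do not grow with length. Gsn had 802 and 803 CPM in sham vehicle mice 1 and 2 and 1833 CPM in sham vehicle mouse 3, the highest library of the series. MI mouse 1 had 1191 CPM, MI mouse 2 had 1000 and 981 CPM, and MI mouse 3 had 1394 and 1232 CPM. With NECA the values were 1314, 1254, 929 and 980 CPM. All MI and NECA-treated mice thus lay between the 2 lower sham vehicle mice and the third.

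Dpep1 (ENSMUSG00000019278), a membrane dipeptidase, was the steadiest member. Sham vehicle mice had 45.5, 49.6 and 69.2 CPM. MI mouse 1 had 64.9 CPM, MI mouse 2 had 46.3 and 50.4 CPM, and MI mouse 3 had 65.2 and 57.3 CPM, while the NECA-treated mice had 50.1, 50.4, 55.6 and 49.0 CPM. The scaled group means were 56.9 ± 6.77, 57.6 ± 6.92 and 51.7 ± 3.31 CPM (SD, n = 3, 3 and 4), and the groups overlapped.

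Dpt (ENSMUSG00000026574), dermatopontin, a small matrix protein that binds decorin and collagen, had 52.3, 46.6 and 109 CPM in the sham vehicle mice. MI mouse 1 had 96.8 CPM, MI mouse 2 had 83.0 and 85.4 CPM, and MI mouse 3 had 258 and 276 CPM. In NECA-treated mice it stood at 149, 138, 87.3 and 94.2 CPM. Sham vehicle mice 1 and 2 were the lowest of the 10 mice, whereas sham vehicle mouse 3 fell among the infarcted mice. Pi16 (ENSMUSG00000024011), a secreted peptidase inhibitor that marks fibroblasts around vessels, had 28.3, 39.8 and 66.0 CPM in the sham vehicle mice. It had 72.8 CPM in MI mouse 1, 47.7 and 58.7 CPM in MI mouse 2, and 252 and 272 CPM in MI mouse 3. With NECA the values were 89.9, 87.8, 62.5 and 42.4 CPM. MI mouse 3 was again far above the rest, at 2.40 times the next highest mouse on the scaled values, and the other mice formed 1 overlapping range.

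Of the 2 genes of both states, Cd248 (ENSMUSG00000056481), endosialin, a surface protein of fibroblasts and pericytes, spread widely within every group. It had 12.01, 9.77 and 30.7 CPM in the sham vehicle mice and 19.5 CPM in MI mouse 1. MI mouse 2 had 8.98 and 13.4 CPM and MI mouse 3 had 44.4 and 38.6 CPM, and the NECA-treated mice had 27.0, 39.9, 20.5 and 9.42 CPM. Ddr2 (ENSMUSG00000026674), a receptor kinase for fibrillar collagen, had 15.4, 15.03 and 36.9 CPM in the sham vehicle mice. It had 34.6 CPM in MI mouse 1, 15.8 and 35.0 CPM in the 1st and 2nd libraries of MI mouse 2, and 47.4 and 49.0 CPM in MI mouse 3. In NECA-treated mice it stood at 39.0, 29.3, 32.5 and 31.1 CPM. For both genes sham vehicle mice 1 and 2 were low and sham vehicle mouse 3 was not. The 2 libraries of MI mouse 2 gave values for Ddr2 whose 95% Poisson intervals, 14.4 to 17.2 and 24.2 to 48.9 CPM, do not meet, so the place of this mouse depends on the library.

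Of the 2 activation markers, Meox1 (ENSMUSG00000001493), a homeobox factor tied to fibroblast activation in the stressed heart, had 7.72, 8.27 and 18.1 CPM in the sham vehicle mice. It had 7.11 CPM in MI mouse 1, 10.5 and 3.09 CPM in MI mouse 2, and 49.8 and 53.1 CPM in MI mouse 3. The NECA-treated mice had 8.75, 10.6, 9.41 and 6.59 CPM. Apart from MI mouse 3, the infarcted mice lay within or below the sham vehicle range. The libraries of MI mouse 2 again gave intervals that do not meet, 9.39 to 11.7 and 0.637 to 9.02 CPM. Between the repeated libraries such gaps occurred for 2 of the 10 genes in MI mouse 2 and, with Gsn, for 1 of 10 in MI mouse 3.

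Cilp (ENSMUSG00000042254), a matrix protein first known from cartilage, had 5.15, 9.02 and 15.7 CPM in the sham vehicle mice. It had 10.7 CPM in MI mouse 1, 10.2 and 9.26 CPM in MI mouse 2, and 180 and 188 CPM in the 1st and 2nd libraries of MI mouse 3. The NECA-treated mice had 20.7, 15.5, 21.4 and 5.65 CPM. A single mouse therefore set the MI mean of 58.9 ± 82.9 CPM (SD, n = 3), against 10.1 ± 4.41 CPM in sham vehicle and 15.8 ± 7.26 CPM in NECA-treated MI mice. Its 2 libraries gave like values, with 95% Poisson intervals of 175 to 185 and 161 to 217 CPM.

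**Figure D1:**
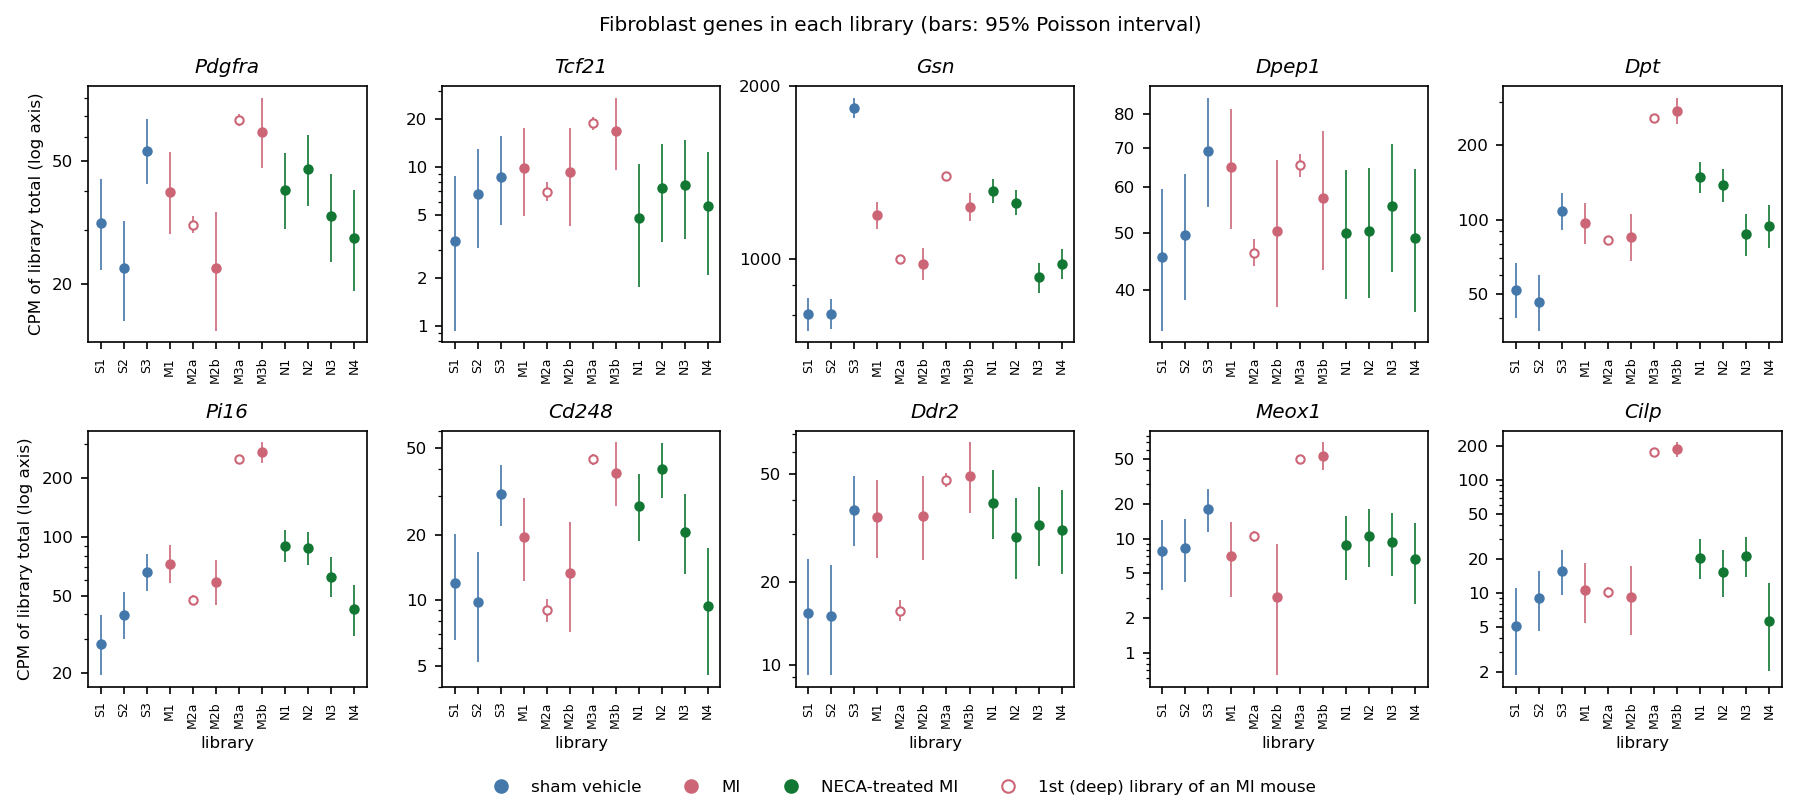
Level of each of the 10 genes in the 12 libraries, in CPM of the library total on a log axis, with 95% Poisson intervals that cover counting error only. S, M and N are sham vehicle, MI and NECA-treated MI mice by number, and a and b are the 1st and 2nd libraries of MI mice 2 and 3. MI mouse 3 stands far above the rest for Cilp (180 and 188 CPM) and Meox1 (49.8 and 53.1 CPM), and sham vehicle mouse 3 is the highest sham vehicle mouse in every panel.

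The first comparison asks how ligation changed these genes. In MI against sham vehicle mice, 0 of the 10 members passed edgeR's quasi-likelihood test at an adjusted p under 0.05, which 0.155% of the 9688 genes tested passed (15 genes). DESeq2, and limma on log2(TPM + 1), also called 0 members, and in edgeR 2 of 10 had an unadjusted p under 0.05, as against 14.9% of all genes. The fitted changes were positive for 8 of the 10 members, against 50.5% of all genes, with a median log2 fold change of 0.61 over the members and 0 over all genes. Sham vehicle mouse 3 and MI mouse 3 both move these counts, as given below.

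The 2 members of smallest p were resting markers. Dpt had a log2 fold change of 0.97 ± 0.38 (SE, unadjusted p = 0.0284, adjusted p = 0.282) and Pi16 one of 1.34 ± 0.57 (unadjusted p = 0.0476, adjusted p = 0.334). Tcf21 stood at 0.80 ± 0.40 and Pdgfra at 0.26 ± 0.27. Gsn and Dpep1 were level, at 0.00 ± 0.25 and -0.01 ± 0.18. Of the activation markers, Cilp had the largest estimate and the largest error of the 10 members, 2.59 ± 1.22 (adjusted p = 0.382), and Meox1 had 0.93 ± 0.59 (adjusted p = 0.498), while Cd248 had 0.36 ± 0.62 and Ddr2 0.41 ± 0.32. The MI mice lay wholly above the sham vehicle mice for 0 of the 10 members and wholly below for 0, against 7.34% and 7.89% of all genes.

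At ordinary depth, 0 of 10 members passed, against 0.0736% of 9505 genes, and 2 had an unadjusted p under 0.05, against 12% of these genes. There, on scaled values, the MI mice lay wholly above the sham vehicle mice for 3 of 10 members, against 7.14% of all genes. These were Tcf21 (0.81 ± 0.42), Pi16 (1.46 ± 0.59) and Ddr2 (0.74 ± 0.26). For Ddr2 the gap was narrow, 34.8 CPM in MI mouse 1 against 34.5 CPM in sham vehicle mouse 3. For Pi16 it was 63.5 CPM in MI mouse 2 against 61.7 CPM in sham vehicle mouse 3. On CPM of the library total the groups overlapped for both genes, with sham vehicle mouse 3 at 36.9 and 66.0 CPM. Ddr2 had the smallest p of the 3 members (unadjusted p = 0.00991, edgeR adjusted p = 0.278). The 2 libraries of MI mouse 2, given above, set this estimate apart from the 0.41 with both.

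The second comparison asks how NECA changed the infarcted heart. In NECA-treated MI against MI mice, 0 of the 10 members passed, against 0.0103% of all genes (1 gene), and DESeq2 and limma also called 0 members. In edgeR 2 of 10 had an unadjusted p under 0.05, as did 10.9% of all genes, and the estimates were positive for 2 of 10, against 47.8%. Tcf21 had -0.84 ± 0.37 (unadjusted p = 0.0329, adjusted p = 0.421). On scaled values every NECA-treated mouse lay below every MI mouse for it, the 1 member with such a gap, which 4.16% of all genes showed. The gap was narrow, 7.80 CPM in NECA-treated mouse 3 against 7.84 CPM in MI mouse 2. On CPM of the library total, the 1st library of MI mouse 2 had 6.96 CPM, below NECA-treated mice 2 and 3 at 7.32 and 7.70 CPM. The NECA-treated mice lay wholly above for 0 members, against 4.96%. At ordinary depth 0 members and 0% of 9505 genes passed, and the groups again did not meet for Tcf21, at -0.86 ± 0.40 (unadjusted p = 0.0432, edgeR adjusted p = 0.811), where 3.61% of genes did so.

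Meox1 had -1.33 ± 0.56 (unadjusted p = 0.0374, edgeR adjusted p = 0.434), Cilp -1.97 ± 1.04 (adjusted p = 0.53) and Pi16 -0.72 ± 0.51 (adjusted p = 0.641), all with overlapping groups. The receptor Pdgfra had -0.25 ± 0.25, and Dpt had -0.24 ± 0.35. Dpep1 and Gsn had -0.14 ± 0.17 and -0.05 ± 0.23. Both genes shared by the 2 states were close to 0, Cd248 at 0.08 ± 0.56 and Ddr2 at 0.11 ± 0.29. The estimates of these genes for the 2 comparisons share the MI mice, so a high MI mouse raises the first and lowers the second.

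The third comparison sets NECA-treated infarcts against sham vehicle hearts. Again 0 of the 10 members passed, and 0% of all genes did (0 genes of 9688). DESeq2 and limma called 0 members, and 0 of 10 had an unadjusted p under 0.05, as against 4.24% of all genes. Estimates were 0.73 ± 0.37 for Dpt, 0.62 ± 0.56 for Pi16, 0.52 ± 0.32 for Ddr2 and 0.44 ± 0.63 for Cd248, each with an edgeR adjusted p of 0.999. Pdgfra, Tcf21, Gsn and Dpep1 lay between -0.14 and 0.01, Meox1 at -0.40 ± 0.66 and Cilp at 0.62 ± 1.34. The estimates were positive for 6 of 10, against 48.1% of all genes. The groups overlapped for all 10, whereas the NECA-treated mice lay wholly above in 4.28% and wholly below in 4.23% of all genes.

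**Figure D2:**
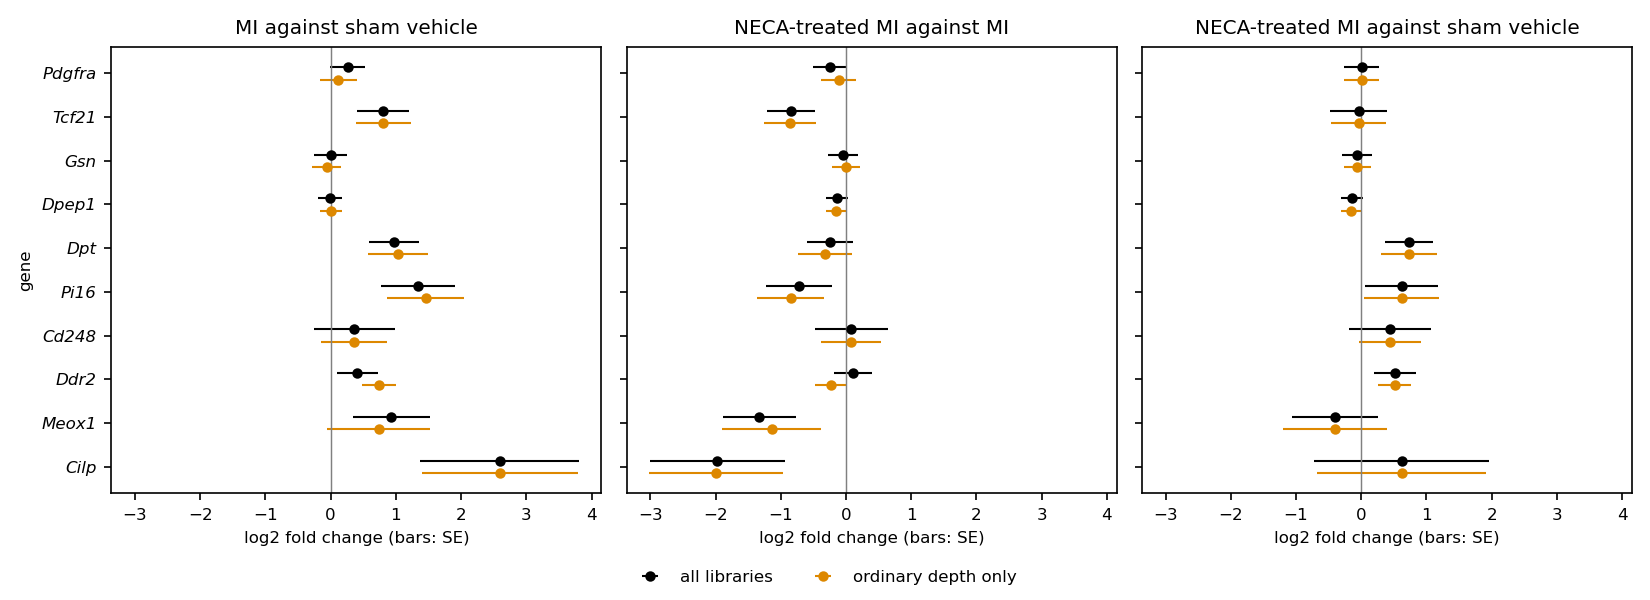
Fitted log2 fold change of each gene in the 3 comparisons, with standard errors, from all libraries (black) and from libraries of ordinary depth only (orange). Cilp in MI against sham vehicle has the largest estimate and a wide bar (2.59 ± 1.22), Gsn and Dpep1 sit at 0 in that comparison, and no gene passed the adjusted threshold.

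MI mouse 3 was the highest of the 10 mice for 7 of the 10 genes, against 12.8% of all genes tested, and at ordinary depth for 7 of 10, against 20.1%. The exceptions were Gsn, Dpep1 and Cd248. It exceeded the median of the other 9 mice 13.6-fold for Cilp, 4.75-fold for Meox1, 3.52-fold for Pi16, 2.28-fold for Dpt and 2.17-fold for Tcf21, but 1.61-fold for Pdgfra and 1.07-fold for both Gsn and Dpep1. The median over all tested genes was 1.01-fold. This mouse also had the lowest summed cardiomyocyte markers of the series, 39870 and 37580 CPM in its 2 libraries against 43370 to 54180 CPM elsewhere, and the highest macrophage sum, 1138 and 1112 CPM against 205 to 782 CPM. The part of these in the fibroblast values was not tested.

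Counts relative to Pdgfra in the same library set the activation markers against the cell type's own receptor. For every 100 counts of Pdgfra, MI mouse 3 had 263 counts of Cilp in its 1st library (95% exact binomial interval 250 to 278) and 300 in its 2nd (223 to 409). The other 10 libraries had 16.2 to 64.1. Meox1 stood at 73.0 (68.0 to 78.4) and 85.0 (57.3 to 126) in this mouse and at 13.6 to 36.7 elsewhere, and Pi16 at 370 (351 to 390) and 435 (327 to 586) against 89.2 to 259. The other resting markers were not all high in this way. Dpt had 378 and 442 in MI mouse 3 against 165 to 377 elsewhere, Tcf21 had 27.4 and 26.7 against 10.8 to 40.9, and Dpep1 had 95.7 and 91.7, below the 107 to 223 of the other libraries. For Meox1 the other infarcted mice had 13.6 to 33.6, within or below the sham vehicle range of 24.3 to 36.7. Of Cilp, the NECA-treated mice had 51.0, 32.8, 64.1 and 20.0 for every 100 counts of Pdgfra, and the sham vehicle mice 16.2 to 40.0, with intervals that overlap.

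**Figure D3:**
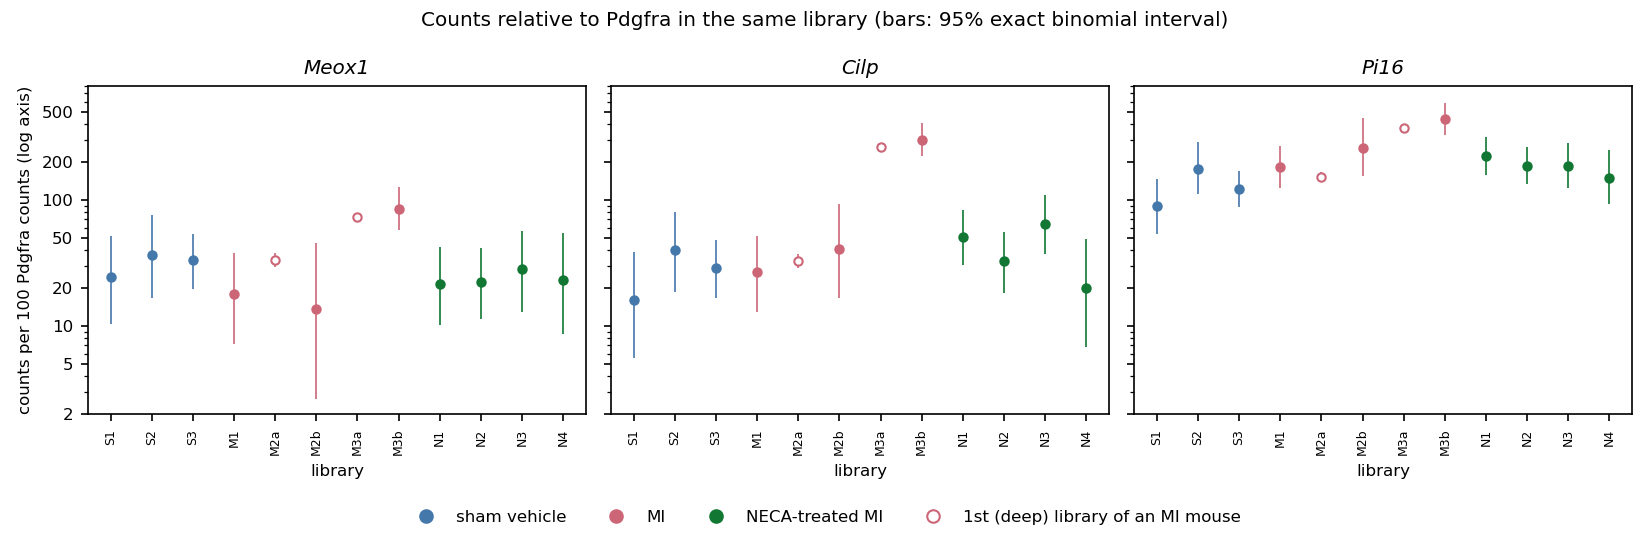
Counts of Meox1, Cilp and Pi16 for every 100 counts of Pdgfra in the same library, on a log axis, with 95% exact binomial intervals that cover counting error only. Letters are as in the plot of levels by library. Both libraries of MI mouse 3 (M3a, M3b) lie above the other 10 libraries in each panel, at 263 and 300 for Cilp.

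The estimates for the activation markers rested on MI mouse 3. Without it, in MI against sham vehicle, Cilp went from 2.59 to 0.10 and Meox1 from 0.93 to -0.21, and the median over the 10 members went from 0.61 to 0.02, with 5 of 10 positive, against 49.2% of all genes. With the 2nd libraries only and without this mouse, Cilp had 0.00 and Meox1 -1.11 (edgeR adjusted p = 0.709). That Meox1 estimate rests on 8 and 3 counts in MI mice 1 and 2, against 9, 11 and 23 in the sham vehicle mice. The unused 1st library of MI mouse 2 had 10.5 CPM, within the sham vehicle range. In NECA-treated MI against MI, Cilp turned from -1.97 to 0.52, Dpt from -0.24 to 0.31 and Pi16 from -0.72 to 0.21, with 6 of 10 positive, against 50.6%. Tcf21 kept its sign at -0.40. On scaled values all 4 NECA-treated mice still lay below the 2 remaining MI mice for this gene, by the same narrow gap. It was the only one of the 10 members with such a gap, against 8.22% of all genes. Meox1 stood at -0.19.

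Leaving out sham vehicle mouse 3 moved the estimates of MI against sham vehicle the other way, for markers of each state. The median went from 0.53 to 0.78 over the resting markers and from 1.76 to 2.14 over the activation markers. Over the genes of both states it went from 0.39 to 0.89. All 10 members then had a positive estimate in MI against sham vehicle, against 51.8% of all genes, with a median of 0.96, and the MI mice lay wholly above sham vehicle mice 1 and 2 for 6 of 10, against 16.3% of all genes. Estimates in this fit were also positive for 7 of 7 epicardial markers (median 2.33, 6 wholly above), for 4 of 4 tested fat cell markers (3 wholly above) and for 8 of 8 macrophage markers (median 1.28, 8 wholly above, 1 called), and their part in the result was not tested. None of the 10 members passed in this fit, where 0.402% of all genes did. Dpt had the smallest adjusted p of the members (1.33, edgeR adjusted p = 0.15). With the 2nd libraries only and without this mouse, Ddr2 passed at 1.19 (edgeR adjusted p = 0.0435, range over its alternatives 0.0435 to 0.973), as did 0.51% of all genes. With both mice left out, Dpt passed in NECA-treated MI against sham vehicle at 1.09 (edgeR adjusted p = 0.0212, range 0.0212 to 1), as did 0.353% of all genes, and Tcf21 was not tested because it failed the count filter there. With all mice but no count filter, Dpt passed in MI against sham vehicle, as did 1.4% of 24735 genes, and Meox1 in NECA-treated MI against MI, as did 0.299%.

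**Figure D4:**
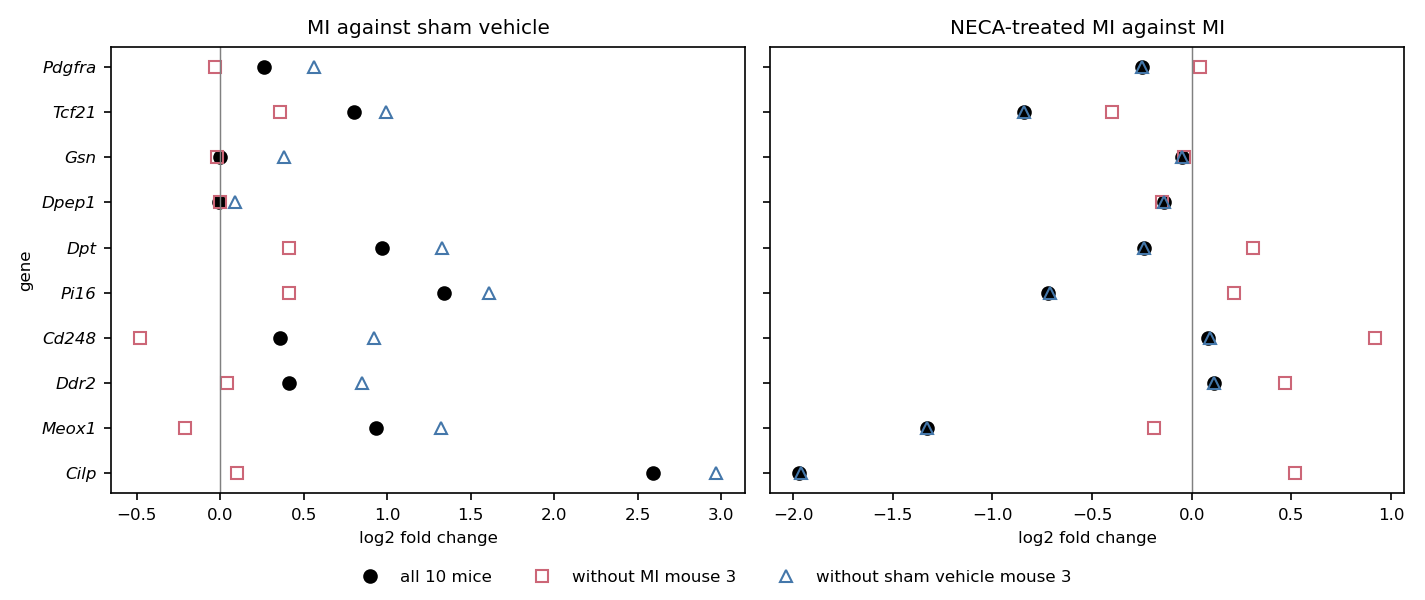
Fitted log2 fold change of each gene with all 10 mice, without MI mouse 3 and without sham vehicle mouse 3, for MI against sham vehicle and NECA-treated MI against MI. Without MI mouse 3, Cilp moves from 2.59 to 0.10 in the first comparison and from -1.97 to 0.52 in the second. Without sham vehicle mouse 3, all 10 estimates of the first comparison are above 0.

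A mean of log2 CPM over the members, taken relative to the sham vehicle mean, put both states side by side in every library. For the 6 resting markers, sham vehicle mice had -0.39, -0.24 and 0.63, MI mouse 1 had 0.46, MI mouse 2 had 0.06 and 0.12, and MI mouse 3 had 1.31 and 1.24. The NECA-treated mice had 0.41, 0.51, 0.20 and 0.00. For the 2 activation markers the order was -0.60, -0.17 and 0.77 in sham vehicle, -0.16, then 0.08 and -0.81, then 3.23 and 3.31 in MI mice 1, 2 and 3, and 0.45, 0.38, 0.53 and -0.65 in NECA-treated mice. MI mouse 3 was highest in both, and sham vehicle mouse 3 came next for the activation markers and for the resting markers.

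Other genes of the 2 states came from lists of known markers, taken whole. Of 14 further resting genes, all tested, 0 passed edgeR in MI against sham vehicle. An unadjusted p under 0.05 was found for 9, against 14.9% of all genes. All 14 had a positive estimate, and the median was 0.63 against 0 over all genes. The MI mice lay wholly above the sham vehicle mice for 6 of the 14, against 7.34% of all genes. In the same comparison all 8 macrophage markers had a positive estimate, with a median of 1.16, 6 at an unadjusted p under 0.05 and 3 with the MI mice wholly above, and their part in these values was not tested. Smoc2, a secreted calcium-binding matrix protein, came nearest, with 48.0, 35.3 and 53.4 CPM in the sham vehicle mice and 72.8 CPM in MI mouse 1. It had 78.7 and 64.8 CPM in MI mouse 2, 128 and 123 CPM in MI mouse 3, and 56.5, 66.7, 56.5 and 56.5 CPM in the NECA-treated mice. Its log2 fold change was 0.94 ± 0.20 in MI against sham vehicle (edgeR adjusted p = 0.0554) and -0.62 ± 0.18 in NECA-treated MI against MI (adjusted p = 0.288), and without MI mouse 3 these were 0.77 and -0.46. As with Tcf21, on scaled values the NECA-treated mice lay wholly below the MI mice. Smoc2 was the 1 gene of the 14 with such a gap, against 4.16% of all genes. By single libraries the groups met, since NECA-treated mouse 2 (66.7 CPM) exceeded the lower value of MI mouse 2 (64.8 CPM).

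Dcn, the collagen-binding proteoglycan decorin, had 0.82 ± 0.30 in MI against sham vehicle, and Lum, its relative lumican, 1.68 ± 0.66. Cd34 and Col15a1, a surface sialomucin and a basement membrane collagen, had 0.61 ± 0.22 and 0.75 ± 0.48, and Scara5, a ferritin receptor of adventitial fibroblasts, 0.09 ± 0.29. Of these, Dcn passed without sham vehicle mouse 3 (1.34, edgeR adjusted p = 0.0345, range over the fits without a mouse or with the 2nd libraries 0.012 to 0.866). It was the 1 call of the 14 genes there, where 0.402% of all genes passed. With the 2nd libraries only, Dcn was again the 1 call without that mouse (1.35, edgeR adjusted p = 0.037), against 0.51% of all genes. With both mice 3 left out, 2 of the 14 passed in MI against sham vehicle, Dcn (1.13) and Lum (1.78, edgeR adjusted p = 0.012 each, range for Lum 0.012 to 0.851). Over all 9631 genes, 26 passed there as higher and 21 as lower. The same fit gave 3 calls of the 14 in NECA-treated MI against sham vehicle, against 0.353% of all genes. They were Lum (1.78, edgeR adjusted p = 0.00747, range 0.00747 to 0.999), Dcn (0.96, adjusted p = 0.0203, range 0.0203 to 0.999) and Mfap5 (1.63, adjusted p = 0.0413, range 0.0413 to 0.999), a microfibril protein named after its values were seen. In NECA-treated MI against MI, 12 of the 14 had a negative estimate and the median was -0.34, and without MI mouse 3 the count was 6 of 14 with a median of 0.04.

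Of 17 further genes of the activated state, 14 were tested and 0 passed edgeR in any of the 3 comparisons. In MI against sham vehicle 5 had an unadjusted p under 0.05, against 14.9% of all genes. None did in NECA-treated MI against MI, against 10.9%, or in NECA-treated MI against sham vehicle, against 4.24%. With both mice 3 left out, 3 of 13 genes tested of this list passed in NECA-treated MI against sham vehicle, against 0.353% of all genes. These were Sfrp2 (edgeR adjusted p = 0.00033, range 0.00033 to 0.999), Cthrc1 and Lox. Sham vehicle mice 1 and 2, the sham vehicle mice kept there, had 0 counts of both Sfrp2 and Cthrc1. Sham vehicle mouse 3, left out, had 14 and 1. These 2 genes thus passed the count filter only through infarcted mice, and their calls rest on a baseline of 0 counts set by that choice of mice. In the same fit, on the same baseline, 1 passed in MI against sham vehicle (Sfrp2, edgeR adjusted p = 0.0291, range 0.0291 to 0.866). There 26 of all 9631 genes passed as higher and 21 as lower. With the 2nd libraries only and MI mouse 3 left out, 2 of 12 passed in NECA-treated MI against sham vehicle. Over all 9777 genes of that fit, 4 passed as higher and 3 as lower. The 2 were Cthrc1 (edgeR adjusted p = 0.0134, range 0.0134 to 0.999) and Lox (adjusted p = 0.0146, range 0.0146 to 0.999). For Cthrc1 the sham vehicle mice had 0, 0 and 1 counts. Sfrp2, a secreted frizzled-related protein, and Lox, the collagen cross-linking lysyl oxidase, are named after their values were seen. Fap, Thbs4 and Cilp2 failed the count filter. In MI against sham vehicle 13 of 14 had a positive estimate with a median of 2.48, and without MI mouse 3 this was 10 of 14 with a median of 0.52. Postn, periostin, the classical marker of activated cardiac fibroblasts, had 11.2, 10.5 and 51.9 CPM in the sham vehicle mice and 60.4 CPM in MI mouse 1. It had 68.6 and 65.9 CPM in MI mouse 2, 1084 and 1178 CPM in MI mouse 3, and 193, 228, 183 and 53.7 CPM in the NECA-treated mice. All 7 infarcted mice lay above the 3 sham vehicle mice, and 3 of the 4 NECA-treated mice above MI mice 1 and 2. The fitted change was 3.86 ± 1.31 in MI (edgeR adjusted p = 0.259) and 2.72 ± 1.25 in NECA-treated MI against sham vehicle (adjusted p = 0.999). Of the 14 genes tested, the MI mice lay wholly above the sham vehicle mice for 3, against 7.34% of all genes. The NECA-treated mice did so for 4, against 4.28%.

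Cthrc1, a secreted protein of scar-forming fibroblasts, had 0, 0 and 0.786 CPM in the sham vehicle mice. MI mice 1 and 2 had 1.78 CPM, and 2.15 and 1.03 CPM, MI mouse 3 had 67.9 and 82.3 CPM, and the NECA-treated mice had 12.7, 22.8, 11.98 and 2.83 CPM. Both infarcted groups lay above the sham vehicle mice, and a count of 0 leaves no usable fold. MI mouse 1 had 2 counts and the 2nd library of MI mouse 2 had 1, against 1 in sham vehicle mouse 3. Tnc, the injury matrix protein tenascin C, had scaled means of 1.99 ± 2.76 CPM in sham vehicle, 21.8 ± 27.2 CPM in MI and 35.4 ± 46.5 CPM in NECA-treated MI mice (SD, n = 3, 3 and 4), with 2.96 to 104 CPM among the NECA-treated mice. NECA-treated mouse 2 was the highest mouse for Tnc, and NECA-treated mouse 4 lay below sham vehicle mouse 3.

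Comp, a cartilage matrix protein that accompanies Cilp in late scar, had 111 and 113 CPM in MI mouse 3, 29.9 CPM in sham vehicle mouse 3 and at most 8.13 CPM in the other 8 mice. Acta2, smooth muscle actin, which vessel muscle also makes, was the 1 tested gene of this list with a negative estimate in MI against sham vehicle, -0.53 ± 0.31, and fibronectin (Fn1) had 2.04 ± 1.22. In NECA-treated MI against MI, 11 of the 14 genes had a negative estimate with a median of -0.92, and without MI mouse 3 the sign turned, with 13 of 14 positive and a median of 1.01. For the NECA-treated mice the mean score of these 14 genes was 1.72, 2.57, 1.86 and 0.71, against 0.92, then 0.59 and 0.49, in MI mice 1 and 2, 4.22 and 4.22 in MI mouse 3 and -0.80, -0.41 and 1.21 in sham vehicle mice.

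**Figure D5:**
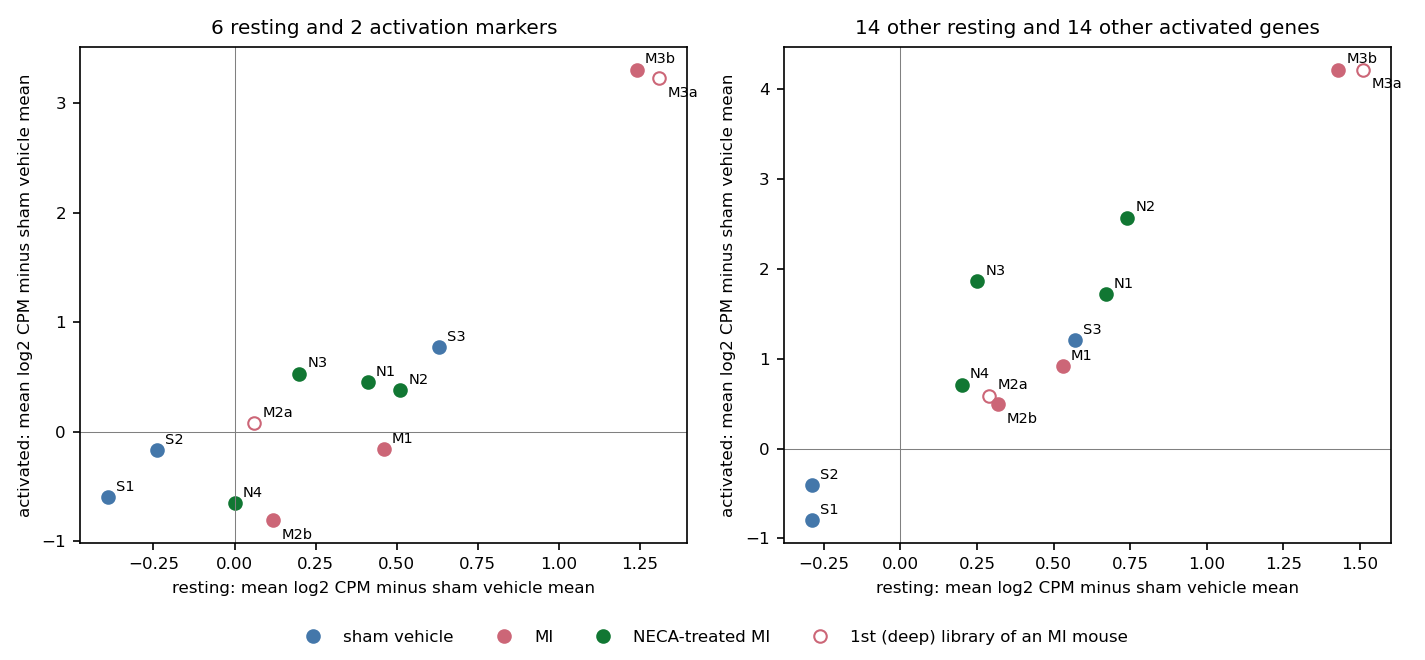
Mean log2 CPM of activated genes against that of resting genes in each library, both relative to the sham vehicle mean, for the 6 resting and 2 activation markers (left) and for 14 further genes of each state (right). MI mouse 3 is at the upper right in both panels (1.31 and 3.23, 1.24 and 3.31 on the left). On the right, the NECA-treated mice lie at 0.71 to 2.57 on the activated axis, MI mice 1 and 2 at 0.49 to 0.92 and MI mouse 3 at 4.22. Sham vehicle mice 1, 2 and 3 lie there at -0.80, -0.41 and 1.21.

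Ligands and partners of the members gave no call either, with 0 of 14 tested genes passing edgeR in each comparison and Pdgfc untested. An unadjusted p under 0.05 was reached by 4 of the 14 in MI against sham vehicle, against 14.9% of all genes. In NECA-treated MI against MI 0 reached it, against 10.9%, and in NECA-treated MI against sham vehicle 1 did, against 4.24%. Of the genes for platelet-derived growth factors, Pdgfa and Pdgfb, whose products bind PDGFRA, had -0.18 ± 0.28 and 0.09 ± 0.21 in MI against sham vehicle. Pdgfd, whose product acts mainly through PDGFRB, had 0.11 ± 0.31, and the untested Pdgfc encodes a further ligand of PDGFRA. The sister receptor Pdgfrb of pericytes and fibroblasts had 0.63 ± 0.37, and Ddr1, the epithelial relative of Ddr2, -0.60 ± 0.29. Col1a1, collagen I, the ligand of DDR2, had 64.3, 85.0 and 193 CPM in the sham vehicle mice and 202 CPM in MI mouse 1. It had 76.5 and 118 CPM in MI mouse 2, 2311 and 1998 CPM in MI mouse 3, and 307, 941, 513 and 179 CPM in the NECA-treated mice. Its fitted change was 2.71 ± 1.23 in MI against sham vehicle (edgeR adjusted p = 0.362) and -0.66 ± 1.06 in NECA-treated MI against MI (adjusted p = 0.859). The collagen thus had the same single high mouse as Cilp, with a second, lower peak in NECA-treated mouse 2 that Cilp lacked (15.5 CPM).

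Across the 10 mice, the 5 other genes whose log2 CPM ran closest to the mean standardised level of the 10 members, among 8311 with at least 10 CPM, were Pcolce (Pearson r = 0.98), Npdc1 (0.975), Txndc5 (0.965), Dbn1 (0.952) and Ccdc80 (0.951). Pcolce encodes an enhancer of procollagen C-proteinase, Txndc5 a protein disulfide isomerase of the endoplasmic reticulum, Dbn1 the actin-binding drebrin and Ccdc80 a matrix protein. Spearman's rho was 0.988, 0.939, 0.988, 0.855 and 0.927 in that order. Without MI mouse 3 and sham vehicle mouse 2, the 2 mice farthest from the median, r was 0.954, 0.962, 0.943, 0.877 and 0.91. These values describe genes picked for their likeness, the mice share the library effects given above, and the median r over all 8311 genes was -0.032.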

How the data were processed

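Per the labels' protocols, 3′ RNA sequencing followed a modified CEL-Seq2 protocol. Per the submitters' processing notes, FastQC 0.11.9, STAR and RSEM were used with GRCm39. Annotation release, strand and molecular identifiers were not given in the sources used here. As files, the authors deposited expected counts per gene, as whole numbers, and log2(TPM + 1) values. Of 57054 rows, 306 had values only in the 1st libraries and 101 lacked values only there, and the 56647 complete rows were used. Symbols came from GENCODE M21 by Ensembl identifier (52029 rows matched). Of the summed counts of MI mice 2 and 3, 96.9% and 96.6% came from the 1st libraries, which exist for MI mice only.

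The main test was edgeR 4.0.16 under R 4.3.3 (filterByExpr, TMM, robust quasi-likelihood test, 2-sided) in 1 fit over all 10 mice, with Benjamini-Hochberg adjustment over 9688 genes and a threshold of 0.05. Group means are TMM-scaled CPM. CPM of single libraries are divided by the library total. At 10 CPM a library of ordinary depth holds about 10 counts, and intervals cover counting error only. Nothing in the labels says that the mice of a group came from separate litters or days, so p-values measure the spread between these mice. Scores use log2 CPM with a prior count of 2. The test was checked on simulated counts. Alternatives were other scalings, DESeq2 1.42.0, limma 3.58.1 on log2(TPM + 1), no filter, single libraries, the 2 groups alone, a replicate block, and leaving out each mouse. Leaving out MI mouse 3 and sham vehicle mouse 3 together was chosen after seeing the data.

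The members and gene lists were chosen with earlier results of these data known. Genes named beside the members are the first 6 tested of each further fibroblast list as written and the 5 genes of highest likeness. Of the other cell types only Myh6, the first heart muscle marker as written, is named. Mfap5, Sfrp2 and Lox were named after their values were seen. Fap, Thbs4, Cilp2 and Pdgfc are named because they failed the filter. Promoter sequences came from RefSeq on GRCm38.p6, another build than the counts.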

Additional observations from a re-analysis of the deposited data

How the results depend on the processing

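Counts of members past the threshold were 0 in all 3 comparisons and stayed 0 with every single mouse left out. They became 1 in MI against sham vehicle without the count filter (Dpt, 1.01, edgeR adjusted p = 0.00167, range 0.00167 to 0.851) and with the 2nd libraries only and sham vehicle mouse 3 left out (Ddr2). They became 1 in NECA-treated MI against MI without the filter (Meox1, -1.36, adjusted p = 0.00871, range 0.00871 to 0.999) and 1 in NECA-treated MI against sham vehicle with both mice 3 left out (Dpt).

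Counts over all genes moved more. For MI against sham vehicle the 15 calls became 7 at ordinary depth, 1 there without MI mouse 3, 50 there without sham vehicle mouse 3, 6 with library totals only, 117 with DESeq2, 0 with limma, 346 without the filter, 0 with the 2 groups alone and 47 with both mice 3 left out, and 0 to 310 with single mice left out. For NECA-treated MI against MI the 1 call became 0 in the 3 fits on the 2nd libraries, with library totals, limma and both mice 3 left out, 17 with DESeq2, 74 without the filter, and 0 to 121 with single mice left out. For NECA-treated MI against sham vehicle the 0 calls became 1 at ordinary depth, 7 there without MI mouse 3, 5 there without sham vehicle mouse 3, 3 with DESeq2, 27 without the filter, 7 with the 2 groups alone and 34 with both mice 3 left out, and 0 to 2 with single mice left out.

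Replicate numbers gave no sign of pairing, with correlations of -0.248 to 0.2 between the deviations of same-numbered mice (2 of 9 over 0.1). The replicate block gave 6, 0 and 1 calls over all genes in the 3 comparisons and 0 members, and put Tcf21 and Gsn at 0.03 in NECA-treated MI against sham vehicle.

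Several signs turned without MI mouse 3, and others with small moves around 0. In MI against sham vehicle, single mice left out gave Pdgfra -0.03 to 0.56, Cd248 -0.48 to 0.92 and Meox1 -0.21 to 1.33, the lowest each time without this mouse, and its absence with the 2nd libraries only gave -0.19, -0.06 and -1.11. In NECA-treated MI against MI the ranges were -0.45 to 0.04 for Pdgfra, -0.49 to 0.31 for Dpt, -1.10 to 0.21 for Pi16 and -2.52 to 0.52 for Cilp, the highest each time without MI mouse 3. For these 4, its absence with the 2nd libraries only gave 0.20, 0.31, 0.06 and 0.62 (Meox1 0.71, Ddr2 -0.13), and leaving out both mice 3 gave 0.04, 0.32, 0.22 and 0.52. Ddr2 had -0.23 at ordinary depth, with or without sham vehicle mouse 3, and single mice left out gave it -0.22 to 0.47. Cd248 had -0.03 with library totals and -0.37 to 0.92 with single mice left out, and Gsn -0.15 to 0.01.

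Dpep1 in MI against sham vehicle had 0.08 and 0.11 with the 2nd libraries only without MI mouse 3 or sham vehicle mouse 3, 0.09 with library totals, 0.21 with limma, 0.04 without the filter, 0.02 with the 2 groups alone, 0.09 with both mice 3 left out, and -0.09 to 0.09 with single mice left out. In NECA-treated MI against sham vehicle, Tcf21 and Gsn had 0.15 and 0.33 with the 2nd libraries only without sham vehicle mouse 3 and 0.09 each with limma, and Gsn had 0.32 with both mice 3 left out. Single mice left out gave Tcf21 -0.27 to 0.15, Gsn -0.22 to 0.33 and Pdgfra -0.22 to 0.31. The cause of each change was not tested. TMM in place of library totals shifted the all-gene median by up to 0.1 (log2).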
